A study of Mus musculus with 45 samples.

Results

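At the Klf2 locus, chromatin accessibility was followed after acute removal of SOX2, OCT4 or NANOG from mouse embryonic stem cells. The locus was taken as every ATACseq peak on chromosome 8 of mm10 with its summit in a fixed window around the gene, and the gene was chosen with earlier results of these data known. It held 20 of the 184964 peaks of the series. Klf2 itself lies on the plus strand at chr8:72319033-72321656, and the peaks are named here by the distance in kb from its annotated start to their summit (minus, upstream; plus, downstream). The nearest summits left outside the window were at 72285408 and 72360674, and the outermost summits inside it at 72291249 and 72354408.

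Klf2 encodes a Krüppel-like zinc finger transcription factor that binds GC-rich CACCC-type sites and, with KLF4 and KLF5, helps to keep mouse embryonic stem cells in the naive pluripotent state. SOX2, an HMG box protein, and OCT4, a POU domain protein encoded by Pou5f1, often bind side by side in enhancers of pluripotency genes, and NANOG is a homeodomain protein of the same network. In ATACseq the transposase Tn5 cuts accessible DNA, so that the number of fragments over a peak reports how open it is in the population of cells.

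Each protein carried an FKBP degron tag, through which the small molecule dTAG-13 directs it to the proteasome. SOX2-FKBP and NANOG-FKBP were clones of E14 cells with the tag knocked in on both alleles, and OCT4-FKBP had been made by another laboratory in V6.5 cells, so that line background and degraded factor cannot be told apart between OCT4 and the other factors. The methods name IB10 cells for the SOX2 line, and each factor has its own line, so line and factor cannot be told apart between SOX2 and NANOG either. All cells grew without serum in N-2 and B-27 medium with LIF, the MEK inhibitor PD0325901 and the GSK3 inhibitor CHIR99021. The 3-line comparison used 27 libraries: for SOX2-FKBP and OCT4-FKBP, 2 libraries each of cells given DMSO (NT) and of cells given 500 nM dTAG-13 for 2 h, 6 h and 24 h, and for NANOG-FKBP 2 libraries of NT and 3 of each time. For SOX2-FKBP, 2 libraries each at 0.5 h and 1 h were also available. Degradation acts on the protein, so the fragment counts hold no check of it. The study's methods mention a further clone for SOX2, but nothing in the labels says which library it is or that replicates came from separate cultures, so the p-values measure only the spread between these libraries, which may be technical.

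Libraries held 1817191 to 17575631 counted fragments, of which 607 to 5926 lay in the 20 peaks. Several libraries stood apart. Chromosome 8 took 7.41 to 7.71% of the counts in OCT4-FKBP and 5.17 to 5.35% in SOX2-FKBP, while in NANOG-FKBP it took 5.51 to 5.80% except in NT replicate 2 (7.1%) and in replicate 3 of each dTAG-13 time (7.0 to 7.1%). The NANOG-FKBP dTAG-13 libraries numbered 2 were shallow and 13.2 to 17.6% mitochondrial, and they gave the highest values of their group at the strongest Klf2 peaks. Levels were therefore compared within a line. Promoter peaks of 9 of 9 embryonic stem cell marker genes averaged 22.7 to 36.2 CPM per kb in the single NT libraries. CPM are fragment counts scaled by TMM to a common library size. The averages were 5.53 to 11.8 for 5 of 5 trophectoderm genes and 5.92 to 11.1 for 4 of 5 primitive endoderm genes (Sox7 had no promoter peak). The median of all tested peaks was 3.74 to 4.22. The first list holds Klf2 itself, and single genes did not all follow these averages. Dppa3 ranged from 2.97 to 11.8 over the single NT libraries, and Sox17 (11.5 to 20.1) was about as open as Sox2 (11.1 to 14.4).

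The sequences below carry the comparisons that follow: 300 bases of each of the 3 peaks that were lost in SOX2-FKBP at every time, and the bases just upstream of Klf2. Capitals mark the SOX core (CATTGT or CTTTGT, either strand) and the POU octamer (ATGCAAAT), the letters that SOX and POU factors are known to prefer. All are given on the plus strand of mm10. The -7.8 kb stretch is chr8:72311125-72311424, the -2.7 kb stretch chr8:72316183-72316482 and the +15.2 kb stretch chr8:72334128-72334427. The Klf2 promoter, from RefSeq (GRCm38.p6), is chr8:72318812-72319032.
-7.8 kb: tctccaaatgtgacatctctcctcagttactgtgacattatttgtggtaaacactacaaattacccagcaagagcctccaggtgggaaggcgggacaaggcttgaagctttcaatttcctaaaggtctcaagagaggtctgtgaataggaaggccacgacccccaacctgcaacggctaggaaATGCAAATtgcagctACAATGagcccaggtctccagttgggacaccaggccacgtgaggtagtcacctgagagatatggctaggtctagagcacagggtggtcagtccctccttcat
-2.7 kb: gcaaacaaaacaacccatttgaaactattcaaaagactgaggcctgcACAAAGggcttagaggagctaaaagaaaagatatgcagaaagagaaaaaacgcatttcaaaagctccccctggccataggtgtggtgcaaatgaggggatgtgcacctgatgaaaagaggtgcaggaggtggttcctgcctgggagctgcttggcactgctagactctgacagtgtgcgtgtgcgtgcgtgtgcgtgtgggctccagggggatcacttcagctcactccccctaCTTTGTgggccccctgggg
+15.2 kb: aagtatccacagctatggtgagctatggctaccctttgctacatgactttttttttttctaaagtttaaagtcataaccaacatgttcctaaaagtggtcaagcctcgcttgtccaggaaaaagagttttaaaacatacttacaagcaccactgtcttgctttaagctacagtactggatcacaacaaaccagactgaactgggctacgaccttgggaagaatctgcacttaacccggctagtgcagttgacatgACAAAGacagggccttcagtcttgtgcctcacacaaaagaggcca
Klf2 promoter: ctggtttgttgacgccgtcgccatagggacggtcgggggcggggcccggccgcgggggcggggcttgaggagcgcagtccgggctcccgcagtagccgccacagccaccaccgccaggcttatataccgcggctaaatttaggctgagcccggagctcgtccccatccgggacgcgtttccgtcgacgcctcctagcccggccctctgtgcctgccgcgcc

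Distances here run from the summit to the middle of each match. In the printed stretches, the octamer of the -7.8 kb peak lies 37 bp after the summit and is followed by a SOX core. In the -2.7 kb peak one SOX core lies 100 bp before the summit and another 134 bp after it, and in the +15.2 kb peak a SOX core lies 156 bp after the summit. The +15.2 kb stretch is not centred on its summit but was shifted to take in the match to an oligo described next. Over their whole length these 3 peaks hold 5, 4 and 3 SOX cores. Counted over 300 bases centred on each summit, a SOX core was found in 34.9% of 184798 peaks and in 6 of the 20 at the locus, among which the +15.2 kb peak is not, since its SOX cores lie outside its central 300 bases. The octamer was found in 2.63% of peaks and at the locus only in the -7.8 kb peak. The joined SOX-POU element (TTGTNATGC, whose first letters can be the end of a SOX core) was found in 1.27% of peaks and in 0 of the 20. A KLF site (CCNCACCC) was found in 16.9% of peaks and in 3 of the 20, and an ESRRB site (AAGGTCA) in 10.5% and in 3 of the 20. These are matches of letters, not sites of binding, and the printed promoter holds 0 matches to the KLF site.

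The study designed a donor oligo against the SOX core downstream of Klf2, and the oligo was matched here to the genome. It corresponds to the minus strand of chr8:72334343-72334427, inside the +15.2 kb peak, and differs from the reference at 4 positions in capitals: T42A, T43G, G44T and T45A, counted from 1 at the 5′ end of the oligo with the reference base first.
reference: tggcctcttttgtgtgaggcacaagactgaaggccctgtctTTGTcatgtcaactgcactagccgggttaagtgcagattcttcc
donor: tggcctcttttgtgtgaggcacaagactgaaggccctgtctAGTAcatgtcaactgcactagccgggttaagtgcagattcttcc
The changed bases are 72334383 to 72334386, within the SOX core printed in capitals above. The guides designed to remove the centre of the peak, 6 on its Klf2 side and 9 on its far side, cut at 72333947 to 72333984 and at 72334516 to 72334628, so that any pair spans 532 to 681 bp around the summit and the SOX core. The edited cells were not analysed here.

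**Figure D1:**
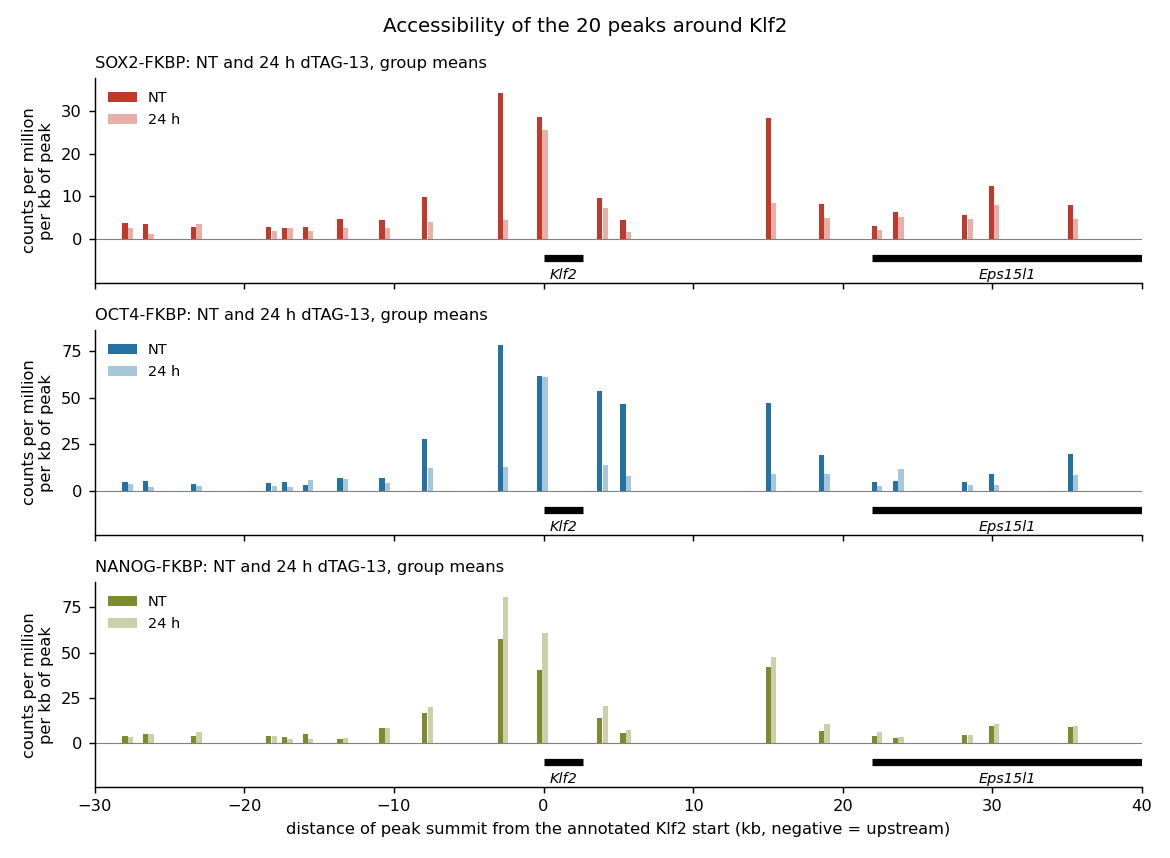
Mean accessibility of the 20 peaks in CPM per kb of peak (vertical axis, 1 panel a line, dark bars NT and light bars 24 h of dTAG-13) against distance from the annotated Klf2 start in kb, with the bodies of Klf2 and Eps15l1 drawn below. The -2.7 kb and +15.2 kb bars drop at 24 h in SOX2-FKBP and OCT4-FKBP but not in NANOG-FKBP, and the promoter bars stay close in SOX2-FKBP and OCT4-FKBP.

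In NT cells the -2.7 kb peak, the promoter peak and the +15.2 kb peak were the 3 most open of the locus per kb in SOX2-FKBP and NANOG-FKBP. Per kb of peak, the -2.7 kb peak (chr8:72316068-72316776) lay at percentile 99.7 of all tested peaks in SOX2-FKBP, the peak over the Klf2 start (chr8:72318585-72319672) at 99.4, and the +15.2 kb peak (chr8:72333366-72335054) at 99.4. The -7.8 kb peak (chr8:72310595-72311806) lay at percentile 85.7 in SOX2-FKBP, 98.4 in OCT4-FKBP and 94.3 in NANOG-FKBP. Apart from the promoter peak, all of these are intergenic. The +22.3 kb peak overlaps a UTR of Eps15l1, the next gene downstream, which encodes an endocytic adaptor and is on the minus strand, and the +23.7, +28.3, +30.1 and +35.4 kb peaks lie in its introns. Upstream, the window also holds Gm10282, annotated as protein coding, on the minus strand at chr8:72304110-72305260. The -13.4 kb peak (chr8:72305367-72305851) lies beside the start of Gm10282.

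With SOX2 removed, the -2.7, -7.8 and +15.2 kb peaks were lost at 2 h and still at 24 h. With OCT4 removed, the -2.7, +5.5 and +15.2 kb peaks were lost at 2 h and 9 peaks at 24 h, while with NANOG removed none passed the test. The promoter peak passed in none of these 9 comparisons. In bulk cells a lower value can be fewer cells with the site open or less opening in each, and these cannot be told apart. A peak was called lost or gained at an adjusted p under 0.05 in edgeR's quasi-likelihood test over 166430 peaks, and 19 of the 20 peaks passed its filter on low counts. The -17.1 kb peak did not, with more than 10 counts in 6 libraries.

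In SOX2-FKBP 3 peaks were lost at 2 h, when 5.06% of all tested peaks were lost, 4 at 6 h (6.83%) and 4 at 24 h (10.9%). None was gained, against 0.574%, 1.18% and 4.87% of all tested peaks. In OCT4-FKBP the numbers lost at 2, 6 and 24 h were 3, 4 and 9 (5.1%, 7.97% and 12.7%), and those gained 0, 0 and 1 (1.92%, 4.12% and 10.8%). In NANOG-FKBP 0 were lost (0.938%, 1.08% and 2.25% at 2, 6 and 24 h) and 0 gained (0.0162%, 0.0367% and 0.288%). At an unadjusted p under 0.05, 1, 0 and 0 of the 19 passed in NANOG-FKBP at 2, 6 and 24 h, beside 12179, 12948 and 18883 of all 166430 tested peaks, and DESeq2 called 0 of the 19 at each. The median log2 change of the 19 was -0.56, -0.70 and -0.65 in SOX2-FKBP, where that of all peaks was 0.07, 0.08 and 0.06. It was -0.27, -0.24 and -0.73 in OCT4-FKBP, beside 0.02, 0.01 and -0.01, and 0.13, 0.16 and 0.14 in NANOG-FKBP, beside 0.00, 0.02 and 0.03.

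**Figure D2:**
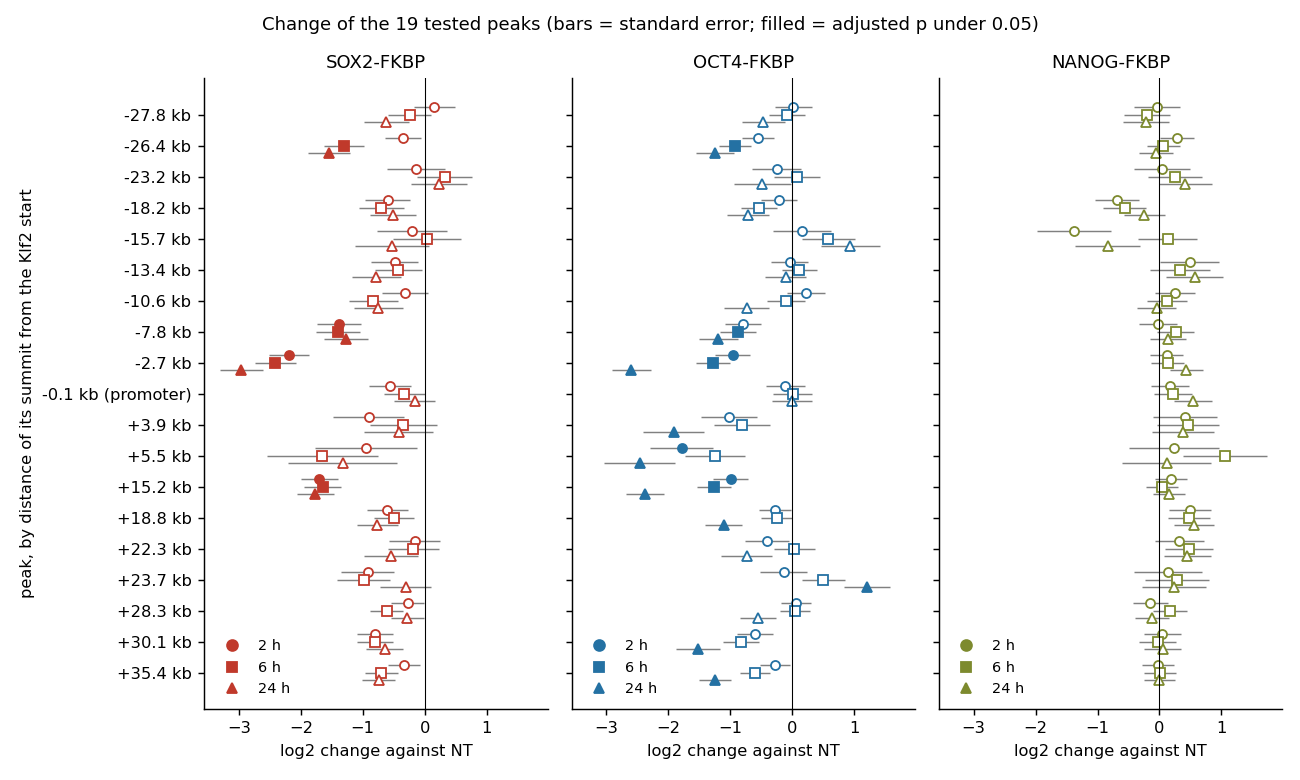
The log2 change from NT (horizontal axis) of the 19 tested peaks (vertical axis) in each line at 2 h (circles), 6 h (squares) and 24 h (triangles), with bars of 1 standard error and filled symbols at an adjusted p under 0.05. The -2.7 and +15.2 kb peaks sit below 0 in SOX2-FKBP and OCT4-FKBP at each time and near or above 0 in NANOG-FKBP.

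The -2.7 kb peak, the nearest upstream of the promoter, had the most negative change of the locus at 24 h in SOX2-FKBP and in OCT4-FKBP. In CPM it stood at 23.6 and 24.9 in the SOX2-FKBP NT libraries. It stood at 5.83 and 4.81 at 2 h, 5.44 and 3.70 at 6 h, and 3.68 and 2.53 at 24 h. No dTAG-13 library overlapped NT, and the log2 changes over the 3 times were -2.19 (SE 0.32), -2.41 (SE 0.33) and -2.96 (SE 0.35), with adjusted p of 7.4e-06, 8.9e-07 and 2.5e-08.

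In OCT4-FKBP the same peak stood at 60.4 and 50.6 in NT. It stood at 27.4 and 29.6 at 2 h, at 23.0 and 22.7 at 6 h, and at 7.94 and 10.4 at 24 h. The fall here was smaller at 2 h, with a log2 change of -0.96 (SE 0.28; adjusted p 0.025), than at 24 h, with -2.60 (SE 0.32; adjusted p 5.6e-08), and was -1.28 (SE 0.28; adjusted p 0.0010) at 6 h. The 2 h call was lost when any of 3 libraries was left out, with -0.83 and adjusted p 0.18 without NT replicate 1, -0.90 and 0.19 without 2 h replicate 1, and -0.99 and 0.12 without 2 h replicate 2. In NANOG-FKBP it stood at 38.9 and 42.3 in NT, at 35.8, 57.6 and 43.2 at 2 h, at 33.0, 52.1 and 51.0 at 6 h and at 31.0, 91.3 and 49.3 at 24 h. The dTAG-13 and NT libraries overlapped, and the second value of each time is the shallow library. The NANOG log2 changes were 0.12, 0.14 and 0.43, and without those 3 libraries -0.03, 0.02 and -0.02.

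**Figure D3:**
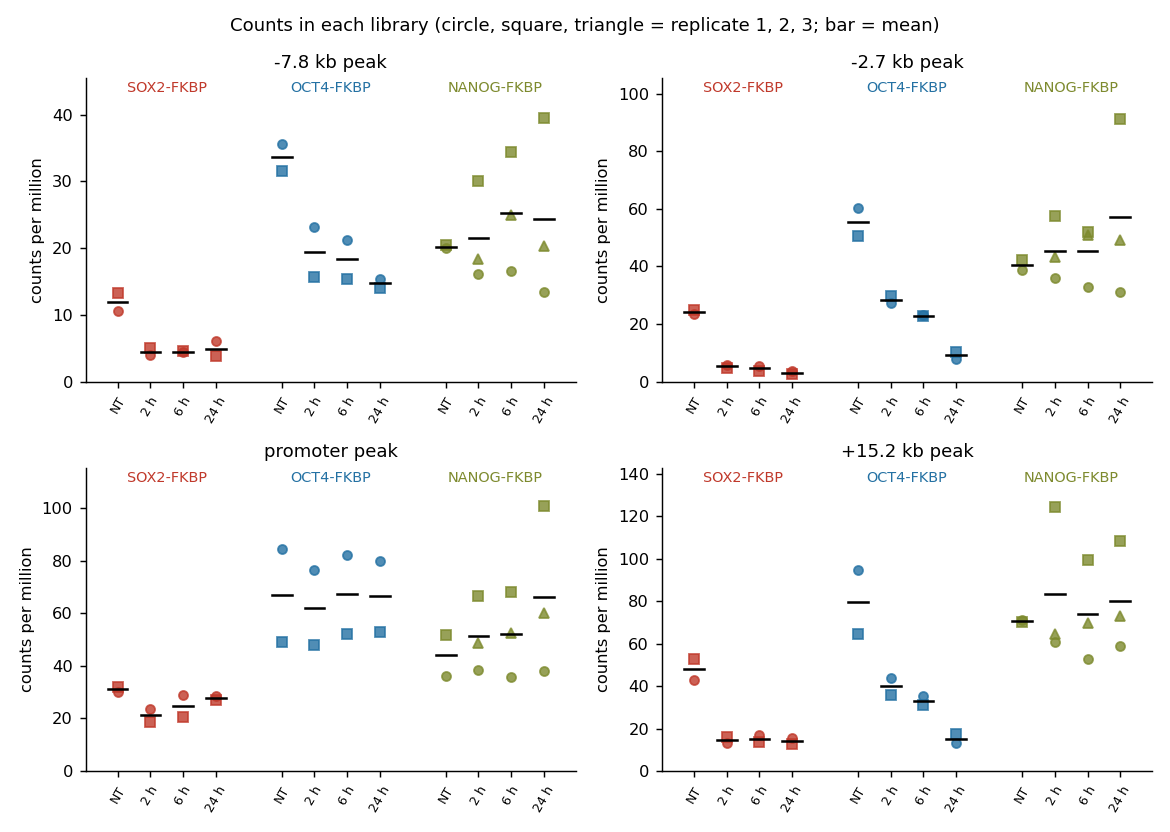
Accessibility of the main Klf2 peaks in every library, in CPM on axes from 0, by line and time, with 1 symbol a library (circle, square and triangle for replicates 1, 2 and 3) and a bar at the group mean. At the -2.7 kb peak the SOX2-FKBP points fall from 23.6 and 24.9 in NT to 3.68 and 2.53 at 24 h, whereas NANOG-FKBP points at 24 h (31.0 to 91.3) span those of NT.

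The +15.2 kb peak, which holds the SOX core targeted by the donor oligo, fell in SOX2-FKBP from 43.1 and 52.6 in NT to 13.1 and 16.2 at 2 h. It stood at 16.9 and 13.7 at 6 h and at 15.5 and 12.5 at 24 h, so that the level at 24 h lay close to that at 2 h. Log2 changes were -1.70, -1.65 and -1.77 (SE 0.30 each), with adjusted p of 1.0e-04, 1.0e-04 and 2.3e-05. In OCT4-FKBP it stood at 94.5 and 64.4 in NT and fell stepwise, to 44.0 and 35.8 at 2 h, 35.3 and 30.9 at 6 h, and 13.1 and 17.4 at 24 h. The log2 change was -0.99 (SE 0.28; adjusted p 0.020), -1.26 (SE 0.28; adjusted p 0.0012) and -2.38 (SE 0.31; adjusted p 1.6e-07). The 2 h call was lost without NT replicate 1 (-0.69, adjusted p 0.32), 2 h replicate 1 (-1.15, 0.060) or 2 h replicate 2 (-0.83, 0.22), and the 6 h call without NT replicate 1 (-0.96, 0.052).

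In NANOG-FKBP the +15.2 kb peak stood at 71.0 and 70.2 in NT and at 60.8, 124 and 64.6 at 2 h. It stood at 53.0, 99.5 and 69.7 at 6 h and at 58.8, 109 and 72.9 at 24 h. On the log2 scale it changed by 0.19, 0.05 and 0.15, none of them called, and without the 3 shallow libraries -0.16, -0.21 and -0.10. Scaled to the counts of chromosome 8 outside the window in place of TMM, it was 0.17, -0.00 and 0.09.

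**Figure D4:**
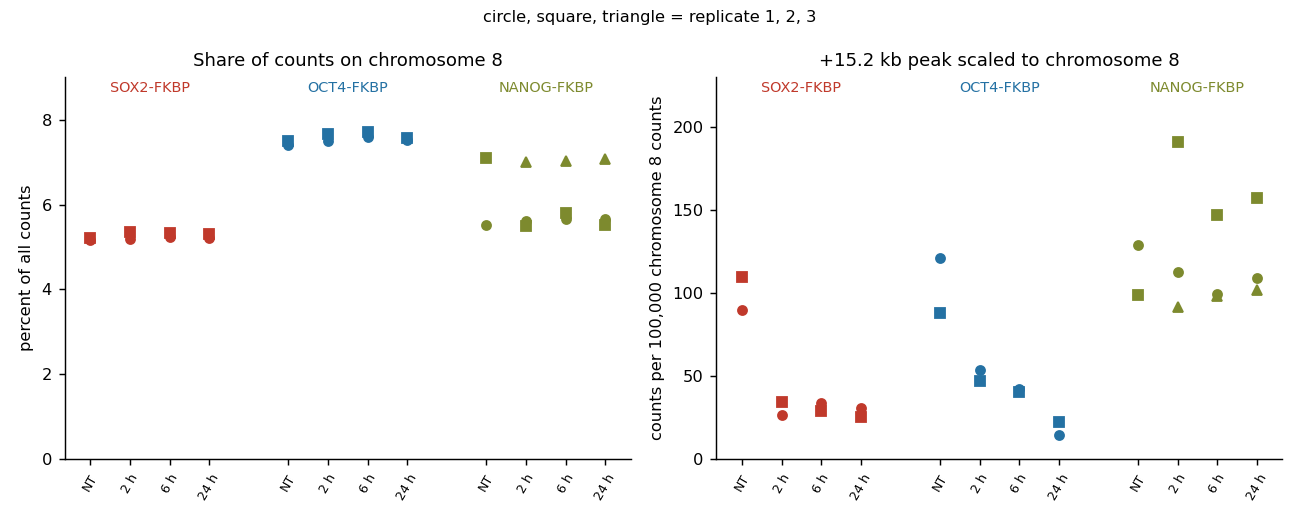
Share of all counts on chromosome 8 in percent (left) and the +15.2 kb peak scaled to the chromosome 8 counts of its library (right), by line and time, with 1 symbol a library (circle, square and triangle for replicates 1, 2 and 3). OCT4-FKBP libraries lie at 7.41 to 7.71% and SOX2-FKBP at 5.17 to 5.35%, while 4 NANOG-FKBP libraries lie at 7.0 to 7.1% and the other NANOG-FKBP libraries at 5.51 to 5.80%.

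The -7.8 kb peak, the only one with an octamer in its central 300 bases, stood in SOX2-FKBP at 10.6 and 13.3 in NT, 4.02 and 4.98 at 2 h, 4.37 and 4.61 at 6 h, and 6.04 and 3.79 at 24 h. All dTAG-13 libraries lay below NT. It changed on the log2 scale by -1.39, -1.40 and -1.27 (SE 0.35 each), with adjusted p of 0.0093, 0.0062 and 0.0089. These calls were lost in the fits without NT replicate 2, where the changes were -1.30, -1.29 and -1.15. Calls were also lost without 2 h replicate 1 (-1.33, adjusted p 0.11), 6 h replicate 1 (-1.42, 0.060) and 24 h replicate 2 (-0.97, 0.16).

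In OCT4-FKBP the -7.8 kb peak stood at 35.6 and 31.5 in NT and at 15.4 and 14.0 at 24 h. The log2 change was -0.79 at 2 h, which did not pass, -0.87 (SE 0.29; adjusted p 0.043) at 6 h and -1.19 (SE 0.31; adjusted p 0.0042) at 24 h. The 6 h call was lost without any of the 4 libraries behind it, with changes of -0.78 and -0.94 without NT replicates 1 and 2, and -1.12 and -0.63 without 6 h replicates 1 and 2. The NANOG-FKBP changes were -0.02, 0.26 and 0.14.

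The promoter peak, over the start of Klf2, stood in SOX2-FKBP at 30.2 and 32.0 in NT, 23.7 and 18.5 at 2 h, 29.0 and 20.6 at 6 h, and 28.5 and 27.2 at 24 h. All dTAG-13 libraries were below NT, but the change did not pass: -0.56 (95% interval -1.23 to 0.12), -0.33 (-0.997 to 0.34) and -0.16 (-0.83 to 0.51). In OCT4-FKBP it stood at 84.7 and 49.0 in NT, 76.3 and 47.9 at 2 h, 82.1 and 52.3 at 6 h, and 79.9 and 53.0 at 24 h. Replicate 1 was above replicate 2 in every OCT4-FKBP group, and the changes were -0.11 (-0.75 to 0.53), 0.01 (-0.63 to 0.65) and -0.00 (-0.65 to 0.64). In NANOG-FKBP they were 0.17, 0.22 and 0.55, with intervals up to 0.80, 0.84 and 1.17. The shallow replicate 2 was the highest NANOG-FKBP library of each dTAG-13 time, at 66.7, 68.2 and 101.

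Because both peaks come from the same library, the ratio of the +15.2 kb peak to the promoter peak does not depend on library scaling. On the log2 scale it was 0.51 to 0.72 in the SOX2-FKBP NT libraries and -1.12 to -0.88 at 24 h, and 0.16 to 0.39 in OCT4-FKBP NT and -2.60 to -1.61 at 24 h. In NANOG-FKBP it was 0.44 to 0.97 in NT and 0.11 to 0.63 at 24 h, and only there did the groups overlap.

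At the upstream edge, the -26.4 kb peak (chr8:72292146-72293468) passed at 6 h and 24 h in SOX2-FKBP and OCT4-FKBP. It stood in SOX2-FKBP at 3.97 and 5.57 in NT, 2.81 and 4.46 at 2 h, 2.23 and 1.56 at 6 h, and 1.64 and 1.55 at 24 h. The log2 change was -0.35 at 2 h, which did not pass, -1.31 (SE 0.32; adjusted p 0.0050) at 6 h and -1.55 (SE 0.34; adjusted p 8.0e-04) at 24 h. In the SOX2-FKBP time course described further on, its mean was 67.6% of NT at 0.5 h, 50.9% at 1 h and 72.8% at 2 h, none of them called. The 6 h call was lost without NT replicate 2 (-1.13, adjusted p 0.075) or 6 h replicate 2 (-1.14, 0.099). In OCT4-FKBP it stood at 7.06 and 7.11 in NT and at 3.36 and 2.60 at 24 h, with changes of -0.55 (not called), -0.92 (adjusted p 0.012) and -1.24 (adjusted p 0.0022). That 6 h call was lost without NT replicate 2 (-0.89, adjusted p 0.080) or 6 h replicate 1 (-0.77, 0.15). In NANOG-FKBP the changes were 0.28, 0.07 and -0.06.

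Just downstream of Klf2, the +3.9 kb and +5.5 kb peaks were lost in OCT4-FKBP but differed widely between its replicates. The +3.9 kb peak (chr8:72322752-72323547) stood at 64.9 and 20.1 in NT and at 14.2 and 8.14 at 24 h, a log2 change of -1.91 (SE 0.50, adjusted p 0.0037). It stood at 28.7 and 13.4 at 2 h and at 38.2 and 10.3 at 6 h. The changes at these times, -1.02 and -0.80, did not pass (adjusted p 0.23 and 0.31). The +5.5 kb peak (chr8:72324375-72324909) stood at 42.0 and 7.96 in NT, 11.5 and 3.28 at 2 h, 16.3 and 4.51 at 6 h, and 6.87 and 1.95 at 24 h. NT replicate 2 overlapped the dTAG-13 libraries at 2 h and 6 h. At both peaks replicate 1 was above replicate 2 in every OCT4-FKBP group. Within each replicate number, the dTAG-13 libraries lay below NT at every time. Leaving out NT replicate 1 thus sets the lower NT library against dTAG-13 libraries of both numbers. The labels do not say that equal numbers belong together. The log2 change of the +5.5 kb peak was -1.78 (SE 0.51, adjusted p 0.022) at 2 h and -2.46 (SE 0.58, adjusted p 0.0013) at 24 h. At 6 h it was -1.25 and did not pass (adjusted p 0.094). Without NT replicate 1 the changes at 24 h were -0.84 (adjusted p 0.29) at +3.9 kb and -0.83 (0.35) at +5.5 kb, and -0.15 (0.96) at 2 h. The +5.5 kb call at 2 h was also lost without 2 h replicate 2 (-1.07, 0.40), and both 24 h calls without 24 h replicate 2 (-1.57, 0.074 and -1.84, 0.056). In SOX2-FKBP neither peak passed in the fit of 27 libraries, though both did at some times in the time course fitted alone, described further on. The SOX2-FKBP changes in the fit of 27 libraries were -0.90, -0.34 and -0.42 at +3.9 kb and -0.94, -1.65 and -1.33 at +5.5 kb. The +5.5 kb peak stood there at 1.94 and 2.72 in NT and between 0.658 and 1.51 in the dTAG-13 libraries, which did not overlap NT. In NANOG-FKBP the changes were 0.41, 0.46 and 0.38 at +3.9 kb and 0.24, 1.06 and 0.12 at +5.5 kb, none of them called. The shallow replicate 2 was the highest library of each dTAG-13 time at both peaks. At +3.9 kb it stood at 32.7, 26.9 and 28.2, and the other dTAG-13 libraries at 9.15 to 12.2. At +5.5 kb it stood at 12.6 at 6 h, beside 3.34 and 5.27.

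In the fit of 27 libraries, the +18.8, +23.7, +30.1 and +35.4 kb peaks passed in OCT4-FKBP at 24 h and in no other comparison with NT. The +18.8 kb peak went from 10.3 and 8.12 to 4.73 and 3.74 (log2 change -1.10, SE 0.30, adjusted p 0.0047), a call lost without 24 h replicate 2 (-0.95, adjusted p 0.064). In the introns of Eps15l1, the +30.1 kb peak went from 10.0 and 8.18 to 2.90 and 3.42 (-1.52, SE 0.35, adjusted p 0.0011) and the +35.4 kb peak from 42.9 and 32.0 to 16.3 and 15.1 (-1.25, SE 0.26, adjusted p 3.0e-04). The +23.7 kb peak was the only one gained, from 2.22 and 1.51 to 3.97 and 4.56 (1.22, SE 0.37, adjusted p 0.013). Its call was lost without NT replicate 2 (0.91, adjusted p 0.18) or 24 h replicate 2 (1.12, 0.085), and the peak was weak, with a median of 15 counts a library. In SOX2-FKBP the +18.8, +30.1 and +35.4 kb peaks were lost at some times in the time course fitted alone, described further on. None of the 4 was called in SOX2-FKBP in the fit of 27 libraries. The SOX2-FKBP changes in that fit were -0.60, -0.50 and -0.76 at +18.8 kb, -0.92, -0.99 and -0.31 at +23.7 kb, and -0.33, -0.70 and -0.74 at +35.4 kb (adjusted p 0.055 at 24 h). At +30.1 kb the SOX2-FKBP libraries with dTAG-13 stood between 5.77 and 8.84, below both NT libraries, of which the higher was at 13.2, and the changes were -0.80, -0.80 and -0.65 (adjusted p 0.12, 0.094 and 0.14). In NANOG-FKBP the changes of the 4 peaks lay between -0.03 and 0.56.

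The other 9 peaks were called in none of the 9 comparisons. The -17.1 kb peak was not tested and stood between 0.239 and 1.55 CPM in the 27 libraries. For the -27.8, -23.2, -18.2, -13.4, -10.6, +22.3 and +28.3 kb peaks the log2 changes lay between -0.83 and 0.57. The -15.7 kb peak, with a median of 8 counts a library, moved between -1.37 and 0.94, and its value in NANOG-FKBP at 2 h (-1.37, unadjusted p 0.027 and adjusted p 0.54) was the one that passed at an unadjusted p under 0.05 in that line.

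Whether the lines differed was tested as the difference between their changes. Between SOX2-FKBP and OCT4-FKBP 0 of the 19 peaks differed at 2, 6 or 24 h, where 1.57%, 2.73% and 2.77% of all tested peaks did. At the -2.7 kb peak the SOX2 change was more negative by 1.23 at 2 h (difference -1.23, 95% interval -2.09 to -0.37, adjusted p 0.18), and the difference was -1.14 at 6 h and -0.37 at 24 h. At the +15.2 kb peak the difference was -0.71 (-1.53 to 0.11) at 2 h, -0.39 at 6 h and 0.61 (-0.24 to 1.46) at 24 h. In a fit that added replicate number as a blocking term, differences passed at the -2.7 kb peak at 2 h (adjusted p 0.0025) and 6 h (0.0050), and at the +3.9 kb (1.41, 0.0046) and +23.7 kb peaks (-1.46, 0.048) at 24 h. The intervals are wide, and the tests do not show that both removals act alike.

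Against NANOG-FKBP the SOX2 change was more negative at 2, 3 and 3 peaks at 2, 6 and 24 h, where 1.75%, 3.27% and 6.78% of all peaks differed in either direction. The -2.7 and +15.2 kb peaks were among them at each time, with differences of -2.31, -2.55 and -3.39 and of -1.89, -1.69 and -1.92. The OCT4 change was more negative than the NANOG change at 0, 2 and 7 peaks (2.52%, 4.95% and 8.89%), led at 24 h by the -2.7 kb peak (-3.03, SE 0.42, adjusted p 2.1e-06) and the +15.2 kb peak (-2.53, SE 0.40, adjusted p 2.4e-05). Without the 4 NANOG-FKBP libraries of higher chromosome 8 share the OCT4 counts at 6 h and 24 h were 0 and 4, and those of the -2.7 and +15.2 kb peaks at 24 h still passed (-3.19 and -2.60).

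In the SOX2-FKBP time course losses were already called at 0.5 h, the earliest time sampled. In a fit of its 12 libraries over 160432 peaks, 3 of the 20 peaks were lost at 0.5 h, where 3.14% of tested peaks were. At 1, 2, 6 and 24 h the numbers were 6, 6, 8 and 8, beside 5.46%, 7.28%, 9.28% and 14.1%. In that fit the -15.7 kb and -17.1 kb peaks did not pass the filter. The 3 first were the -7.8 kb peak (-1.03, SE 0.22, adjusted p 0.0030), the -2.7 kb peak (-1.57, SE 0.21, adjusted p 1.0e-05) and the +15.2 kb peak (-1.05, SE 0.16, adjusted p 6.3e-05). At 1 h the +3.9 kb peak, the +5.5 kb peak (-1.49) and the +30.1 kb peak (-0.81) were also lost. DESeq2 did not call these 3 at 1 h (adjusted p 0.078, 0.34 and 0.084), nor the -7.8 kb peak at 0.5 h (0.053). Later calls in the fit of 12 libraries took in the +30.1 kb peak at 2, 6 and 24 h (adjusted p 0.0024, 0.0021 and 0.0094). They also took in the +3.9 kb peak at 2 h (0.0030) and the +5.5 kb peak at 6 and 24 h (0.0044 and 0.014). The +35.4 kb peak passed at 6 and 24 h (0.0039 and 0.0018), the +18.8 kb peak at 24 h (0.041) and the +28.3 kb peak at 6 h (0.047). The 12 and 27 library fits share their SOX2-FKBP libraries at NT, 2, 6 and 24 h and are not independent. The fit of 27 libraries takes 1 spread for each peak over the 3 lines, and that of 12 over SOX2-FKBP alone.

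By mean level at 0.5, 1, 2, 6 and 24 h, the -2.7 kb peak was at 34.7%, 23.9%, 21.0%, 18.2% and 12.4% of NT. The +15.2 kb peak was at 48.1%, 37.1%, 29.2%, 30.8% and 28.5%, and the -7.8 kb peak at 48.6%, 46.6%, 36.0%, 36.2% and 39.9%. The 2 libraries of the -2.7 kb peak spanned 26.5 to 28.1 CPM in NT and 7.53 to 11.4 at 0.5 h, and those of the +15.2 kb peak 48.4 to 59.5 and 24.8 to 27.1. The promoter peak was at 78.6%, 79.3%, 64.9%, 76.8% and 87.2% of NT, and in this fit it passed at 2 h alone (-0.62, SE 0.17, adjusted p 0.0099), which it did not in the 3-line fit.

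**Figure D5:**
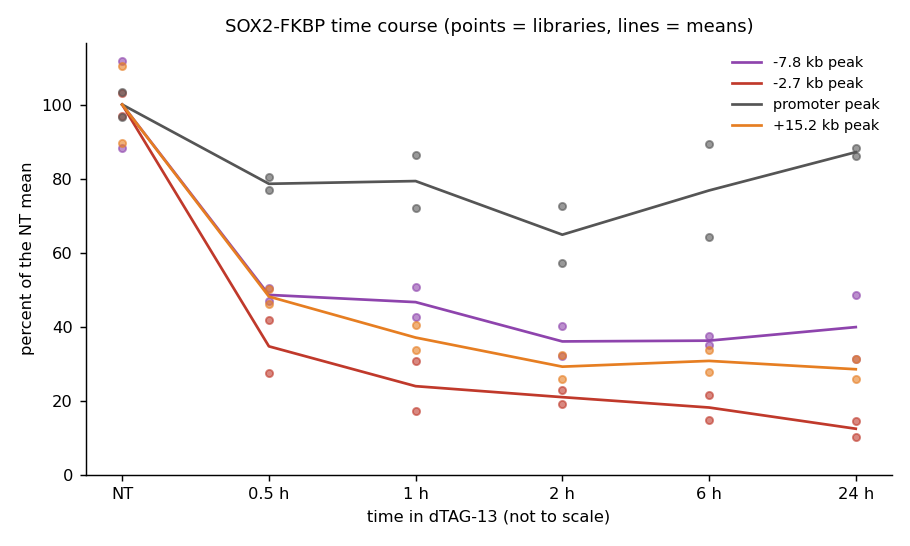
Accessibility of the main Klf2 peaks over the SOX2-FKBP time course (NT, 0.5, 1, 2, 6 and 24 h of dTAG-13), in percent of the NT mean (vertical axis) with time spaced evenly and not to scale, 1 point a library and lines through the means. The -2.7 kb line falls to 34.7% of NT at 0.5 h and to 12.4% at 24 h, whereas the promoter line lies between 64.9% and 87.2%.

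The promoter peaks of the other KLF genes behaved in several ways. A promoter peak was found for 14 of 16 (Klf1 and Klf15 had none). In OCT4-FKBP at 24 h 2 were lost (Klf3 and Klf17) and 7 gained (Klf4, Klf5, Klf6, Klf7, Klf10, Klf11 and Klf14), with a median log2 change of 0.58 over the 14, where 12.7% of all tested peaks were lost and 10.8% gained. In SOX2-FKBP at 24 h 1 was gained (Klf11; 4.87% of all tested peaks were), and in the other 7 comparisons 0 were called. Klf4 and Klf5, which with Klf2 serve naive pluripotency, changed by 0.57 (SE 0.21, adjusted p 0.041) and 0.62 (SE 0.21, adjusted p 0.028) in OCT4-FKBP at 24 h, while the Klf2 promoter peak changed by -0.00.

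Of 15 promoter peaks of other genes of the pluripotency network, 1, 1 and 4 were lost in SOX2-FKBP at 2, 6 and 24 h (5.06%, 6.83% and 10.9% of all tested peaks). Nr5a2, an orphan nuclear receptor gene, was the one at each time, and Nanog (-0.71), Pou5f1 (-1.14) and Prdm14 (-0.66) joined it at 24 h. In OCT4-FKBP 0, 1 and 3 were lost (5.1%, 7.97% and 12.7%). Nanog was lost at 6 h and 24 h (-1.21 at 24 h), and Pou5f1 (-1.32) and Esrrb (-2.14), the gene of an orphan nuclear receptor, at 24 h, when Klf4, Klf5 and Tfcp2l1 (0.88) were gained. In NANOG-FKBP 0 were called. Of the trophectoderm genes 0 of 5 were called in any of the 9 comparisons, and of the primitive endoderm genes Gata4 (0.70) and Gata6 (0.69), 2 of 4, were gained in OCT4-FKBP at 24 h, when 10.8% of all tested peaks were. The part of such cell types in the Klf2 losses at 24 h was not tested.

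Among 46373 peaks outside the window whose normalized counts averaged 50 or more, the 5 whose 9 log2 changes were closest to those of the +15.2 kb peak lay nearest to the starts of Utrn, Galr1, Nrf1, Aim2 and Sinhcaf. These starts were 59108, 540970, 43590, 11954 and 9716 bp away, in that order. The root mean square differences of these 5 peaks from the +15.2 kb peak, over the 9 comparisons, were 0.14, 0.15, 0.17, 0.17 and 0.18 on the log2 scale. The peak with Utrn as its nearest start (chr10:12488981-12490490) changed by -1.84, -2.42 and 0.16 at 24 h in SOX2-FKBP, OCT4-FKBP and NANOG-FKBP, where the +15.2 kb peak changed by -1.77, -2.38 and 0.15.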

How the data were processed

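ATACseq libraries of the SOX2-FKBP, OCT4-FKBP and NANOG-FKBP lines were analysed from the deposited files. The authors mapped reads to mm10 with BWA 0.7.17-r1188, filtered them with SAMtools 1.10, removed duplicates with Picard 2.12.0, ran MACS2 on the merged libraries to call peaks, and counted the fragments over each peak. The count table deposited by the authors holds raw counts per peak. The peak list deposited by the authors also holds the fold enrichment of each summit and its −log10 p and q, which came from pooled data and were not compared between groups.

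Counts were scaled by TMM and tested with edgeR 4.0.16 in R 4.3.3 (glmQLFit, glmQLFTest; Benjamini-Hochberg adjustment over all peaks tested), with 1 mean for each line and time, over the 166430 peaks in which more than 6 of 27 libraries had over 10 counts. The 12 SOX2-FKBP libraries were fitted alone over the 160432 peaks in which more than 2 had over 10 counts. The authors' own test was DESeq2; DESeq2 1.42.0 was an alternative, beside other scalings, filters, a replicate block, separate fits and left-out libraries. The test was also run on simulated counts with the same spread at every peak and in every library. That check does not cover the uneven replicates of these data. The left-out fits took their estimate of how spread changes with level from a subset of the peaks. Levels are given as CPM of the TMM-scaled library, and intervals are 95%.

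The peaks described in full are the promoter peak, the peak nearest to 3 kb upstream, the peak matching the donor oligo and each other peak called in any comparison. Marker, network and KLF genes are read at the strongest peak within 1 kb of a start. The window, lists and tests were chosen with earlier results of these data known. Leaving out the NANOG-FKBP libraries that stand apart was added after seeing the data. Motifs were searched in mm10 sequence and genes taken from GENCODE. Other samples of the series (SOX2 fragments, edited cells, washout; 14 samples) were not analysed here. Among the 27 libraries of the 3-line fit, no pair of replicates agreed within counting noise (chi-square per degree of freedom 1.21 to 7.43); the 0.5 h and 1 h pairs were not tested this way.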

Additional observations from a re-analysis of the deposited data

Results flagged for a closer look

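The tests of a difference between lines in the change from NT flagged 17 values at the Klf2 locus, each negative, that is, a stronger fall with SOX2 or OCT4 removed than with NANOG removed. They are differences of log2 changes from edgeR's quasi-likelihood fit of 27 libraries.

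For SOX2-FKBP minus NANOG-FKBP, the -2.7 kb peak differed by -2.31, -2.55 and -3.39 at 2, 6 and 24 h, and the +15.2 kb peak by -1.89, -1.69 and -1.92. The -7.8 kb peak differed by -1.66 at 6 h and the -26.4 kb peak by -1.49 at 24 h. With each of the 9 libraries of a comparison left out in turn, the -2.7 kb calls held at all 3 times and the +15.2 kb calls at 2 h and 24 h. At 6 h the +15.2 kb call was lost without SOX2-FKBP 6 h replicate 2 (-1.61, adjusted p 0.054). The -7.8 kb call held in 3 of 9 cases (adjusted p up to 0.13) and the -26.4 kb call in 4 of 9 (up to 0.13).

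For OCT4-FKBP minus NANOG-FKBP at 6 h, the -2.7 kb peak differed by -1.41 and the +15.2 kb peak by -1.31, and each call held in 2 of 9 cases, with values of -1.58 to -1.28 and -1.52 to -1.01. At 24 h the -7.8 kb peak differed by -1.33, the -2.7 kb peak by -3.03, the +3.9 kb peak by -2.30, the +15.2 kb peak by -2.53, the +18.8 kb peak by -1.66, the +30.1 kb peak by -1.57 and the +35.4 kb peak by -1.24. The -2.7 and +15.2 kb calls held in 9 of 9 cases, the +18.8 kb call in 8, the +30.1 kb call in 5, the +3.9 and +35.4 kb calls in 4 and the -7.8 kb call in 1.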

How the results depend on the processing

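With the library scaling, the filter, the tool, the block and the libraries varied in turn, 134 of 2959 values of the described peaks had the opposite sign of their value in the report, and 0 of these were called in either fit. DESeq2 called 1 peak lost in OCT4-FKBP at 2 h (+15.2 kb, adjusted p 0.036; -2.7 kb was at 0.056 and +5.5 kb at 0.34), gave 1 lower change for OCT4 than for NANOG at 6 h and called 3 lost at 1 h in the SOX2-FKBP time course. A separate fit for each line called 6, 8 and 8 peaks lost in SOX2-FKBP. For the alternatives to the main fits, here and above, the shares of all tested peaks called are not given. Whether a changed count is particular to the locus was therefore not tested. Requiring at least 10 counts in every library left 0 gained in OCT4-FKBP at 24 h, since the +23.7 kb peak was then not tested. Totals without mitochondrial counts gave 1 lower change for OCT4 than for NANOG at 2 h. Without the 4 NANOG-FKBP libraries of higher chromosome 8 share these were 0 at 6 h and 4 at 24 h, an alternative added after seeing the data.

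Replicate numbers pair the samples by number alone: same-numbered deviations correlated at 0.091 to 0.20 in SOX2-FKBP, 0.16 to 0.39 in OCT4-FKBP and, between NT and dTAG-13, 0.039 to 0.10 in NANOG-FKBP. There, dTAG-13 libraries of the same number correlated at 0.20 to 0.24, but NT replicate 2 correlated with dTAG-13 replicate 3 (0.16 to 0.24) and not with dTAG-13 replicate 2 (-0.04 to -0.02), so a block by number does not follow these libraries. With the number as a replicate block, SOX2-FKBP lost 6, 7 and 8 peaks, OCT4-FKBP 5 at 2 h and 8 at 6 h, and NANOG-FKBP gained 1 at 6 h and 1 at 24 h. Those gained were the +5.5 kb (1.28, adjusted p 0.010) and promoter peaks (0.49, adjusted p 0.044). The block gave 1, 1 and 1 lower changes for SOX2 than for OCT4 at 2, 6 and 24 h and 1 higher at 24 h. The lower ones were the -2.7 kb peak at 2 h (-1.23, adjusted p 0.0025) and 6 h (-1.14, 0.0050) and the +23.7 kb peak at 24 h (-1.46, 0.048), and the higher one the +3.9 kb peak (1.41, 0.0046). It gave 6, 5 and 6 lower changes for SOX2 than for NANOG, 5 and 7 for OCT4 than for NANOG at 2 h and 6 h, and 5 lost peaks at 0.5 h in the time course.

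With 1 library left out in turn, lost peaks ranged from 2 to 4 in SOX2-FKBP at 6 h, 0 to 4 in OCT4-FKBP at 2 h and 2 to 4 at 6 h, and gained peaks from 0 to 1 in OCT4-FKBP at 24 h. Lower changes for SOX2 than for NANOG ranged from 1 to 4 at 6 h and 2 to 5 at 24 h, and for OCT4 than for NANOG from 0 to 1, 0 to 4 and 3 to 8 at 2, 6 and 24 h. Of the calls against NT, 2 of 3, 2 of 4 and 3 of 4 held in every case in SOX2-FKBP, and 0 of 3, 1 of 4 and 6 of 10 in OCT4-FKBP. Libraries were not left out in turn in the SOX2-FKBP time course fitted alone. A left-out case leaves some groups with 1 library, which is assumed to vary like the others. The left-out fits also took their estimate of how spread changes with level from a subset of the peaks, unlike the main fit. A call lost in such a fit can therefore be lost through this change as well as through the missing library. Depth limits the weak peaks: the -15.7 kb peak had a median of 8 counts a library.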
